A study of Rattus norvegicus with 4 samples.

Results

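Nuclei of GABA neurons that carried transcripts of Gata3 were singled out from single-nucleus RNA sequencing of the rat ventral tegmental area (VTA), the midbrain region best known for its dopamine neurons. A nucleus, meaning a droplet barcode, was taken when it held at least 2000 unique molecular identifiers (UMIs, counted transcript molecules), at least 1 UMI each of Gata3, Gad1 and Slc32a1, and 0 UMIs of Slc17a6, Lum and Isl1. This gave 248 Gata3 GABA nuclei of 21606 barcodes (1.15%), or 1.62% of the 15296 barcodes with at least 2000 UMIs. They numbered 68 and 64 in the 2 female libraries and 54 and 62 in the 2 male libraries. The comparison class, called Gata3-negative GABA nuclei here, met the same minimum of UMIs with Gad1 and Slc32a1 present and Gata3, Slc17a6, Lum and Isl1 at 0, and held 734 nuclei (181, 213, 169 and 171 in female 1, female 2, male 1 and male 2).

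The tissue was microdissected from adult Sprague-Dawley rats of both sexes, aged 90 to 120 days and experimentally naive, with no genetic or drug manipulation in either group. Frozen tissue of 3 animals of 1 sex was pooled for each library, nuclei were released by lysis, stained with 7-AAD and sorted, and libraries were made with the 10x Genomics 3' (v3) chemistry. The pooled library was the replicate. In tests that compare classes within libraries, the p-values measure how the difference between classes varied over 4 pools. In the test of sex within members they measure the spread between pools, and in no test the spread between animals. Nuclear RNA was measured, which leaves out transcripts held in the cytoplasm.

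GATA3 is a zinc-finger transcription factor that binds GATA motifs. In the embryonic midbrain and anterior hindbrain it acts with its paralog GATA2 and with TAL1 to select the GABA fate in postmitotic precursors. The GABA neurons in and around the VTA come from several progenitor domains, and they inhibit dopamine neurons locally or project out of the region.

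The genes that define the label were fixed by the gate. Gad1 (the main GABA-synthesising enzyme) was at 522 ± 76.1 CPM (UMIs scaled to a common class sum, SD, n = 4 libraries) against 493 ± 45.2 in Gata3-negative GABA nuclei, and Slc32a1 (the vesicular GABA transporter) was at 324 ± 53.0 against 326 ± 47.1. Gata3 (ENSRNOG00000019336) itself was at 206, 208, 169 and 188 CPM in female 1, female 2, male 1 and male 2. The members were chosen by the UMI counts of these 3 genes and of Slc17a6, Lum and Isl1, so these values are a description with no test. The gate rested on few molecules: 128 members (51.6%) held 1 Gata3 UMI, 66 held 2 and 54 held 3 or more, with a maximum of 7. Just outside the gate lay 8 nuclei left out for Slc17a6 (6 of them with a single UMI), 2 left out for Isl1, 0 left out for Lum and 1 that met every gene criterion at under 2000 UMIs. With each nucleus thinned to 2000 UMIs, 37.6% of members would hold a Gata3 UMI, against 0.0959% of 5778 oligodendrocyte nuclei, which should lack it. Unthinned, 0.190% of the oligodendrocyte nuclei held one, at a median of 3113.5 UMIs against 8729 in members. A Gata3-expressing nucleus with 0 Gata3 UMIs falls in the comparison class, whose levels therefore include such nuclei in a number that was not measured.

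Members were deeper than the comparison nuclei, with medians of 8729 and 7200.5 UMIs and of 3881 and 3352 genes. Their UMIs summed to 640045, 669673, 585519 and 484815 per library, out of library totals of 19714338 to 25824289. Dopamine neuron markers summed to 26.6 to 51.6 CPM in members and 79.7 to 123 in the comparison class. Of the glutamate neuron markers, Slc17a7 was at 0 in members, while Slc17a8 had 10, 9, 3 and 4 UMIs, which is 15.6, 13.4, 5.12 and 8.25 CPM. It was at 7.32 to 14.0 CPM together with Slc17a7 in the comparison class. The 3 serotonin neuron markers summed to at most 2.99 CPM. All 8 oligodendrocyte markers had UMIs in every library, summing to 452 to 1317 CPM in members and 359 to 1311 CPM in the comparison class. The 6 microglia markers summed to 2.99 to 6.83 CPM in members of 3 libraries and to 53.6 CPM in male 2, where Cx3cr1 was at 0. In the comparison class they likewise summed to 53.5 CPM in male 2, and to 10.7, 14.0 and 3.37 CPM in female 1, female 2 and male 1. Doublet scoring marked 14 members (5.65%) and 38 comparison nuclei (5.18%). The 36 barcode sequences that occurred in more than 1 library included 0 members and 3 comparison nuclei.

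Among the gated GABA nuclei, members made up 27.3% and 23.1% in the female libraries and 24.2% and 26.6% in the male ones. The sexes overlapped, with 25.2% ± 2.97 in females and 25.4% ± 1.69 in males (SD, n = 2 each), and the exact two-sided permutation test gave p = 1. Of all barcodes with at least 2000 UMIs, members were 1.95% and 1.60% in females and 1.74% and 1.31% in males. That difference of 0.251 percentage points had an exact permutation p of 0.667, where 2 libraries against 2 cannot give less than 0.333. The Wilson 95% interval of a single library ran from 22.2% to 33.2% in female 1, which covers the shares of the other 3 libraries. The first difference was smaller than the SD of either sex and the second about as large as it, and the first changed sign when female 2 or male 2 was left out.

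In a model of summed UMIs with library as a block, 856 of 9510 genes differed between Gata3 GABA and Gata3-negative GABA nuclei at an adjusted p under 0.05, which is 9.0% of the genes tested. Of these, 327 (3.44%) were higher and 529 (5.56%) lower in members, and 1770 genes (18.6%) had an unadjusted p under 0.05. Past an absolute log2 fold change of 1 there were 282 genes (2.97%), 49 higher (0.515%) and 233 lower (2.45%). The 4 libraries of the 2 classes did not overlap for 4.68% of genes in the higher and 5.28% in the lower direction. The largest decreases were far larger than the largest increases, and they were carried by genes that were nearly silent in members. In the comparison class, 338 of 734 nuclei (46.0%) had a UMI of Pax7, Pax3 or Ebf2, 3 transcription factor genes of other midbrain GABA and neighbouring lineages, against 5 members (2.02%). When only the 396 comparison nuclei without a UMI of those 3 genes were kept, a choice made after seeing the data, 212 of 8652 genes (2.45%) were called. Of these, 77 (0.89%) were higher and 135 (1.56%) lower, and 176 were shared with the full comparison. That comparison had fewer nuclei and fewer genes tested than the full one. With depth-matched comparison nuclei (68, 64, 54 and 62 per library), 625 of 8490 genes were called. How much of the lower count against the 396 nuclei came from fewer nuclei or genes was not tested. The median depth of the 396 nuclei was 7180.5 UMIs and that of the 338 removed was 7227.5. These 396 nuclei are called Pax/Ebf2-free below, and a call of the full comparison that was lost there is named as such. Of 82 called genes chosen by the naming rule, 67 could be tested there and 30 of them were called in the same direction. The other 15 had no value there. Among them Ebf2, Pax3 and Pax7 were absent because the nuclei were chosen to be without a UMI of them. The rest had too few UMIs there to be tested, which says nothing on whether they would differ: Chrna2, Chrna3, Ecel1, En2, Epyc, Hcn4, Kitlg, Nhlh2, Pparg, Rxrg, Sema3a and Slc5a7.

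**Figure D1:**
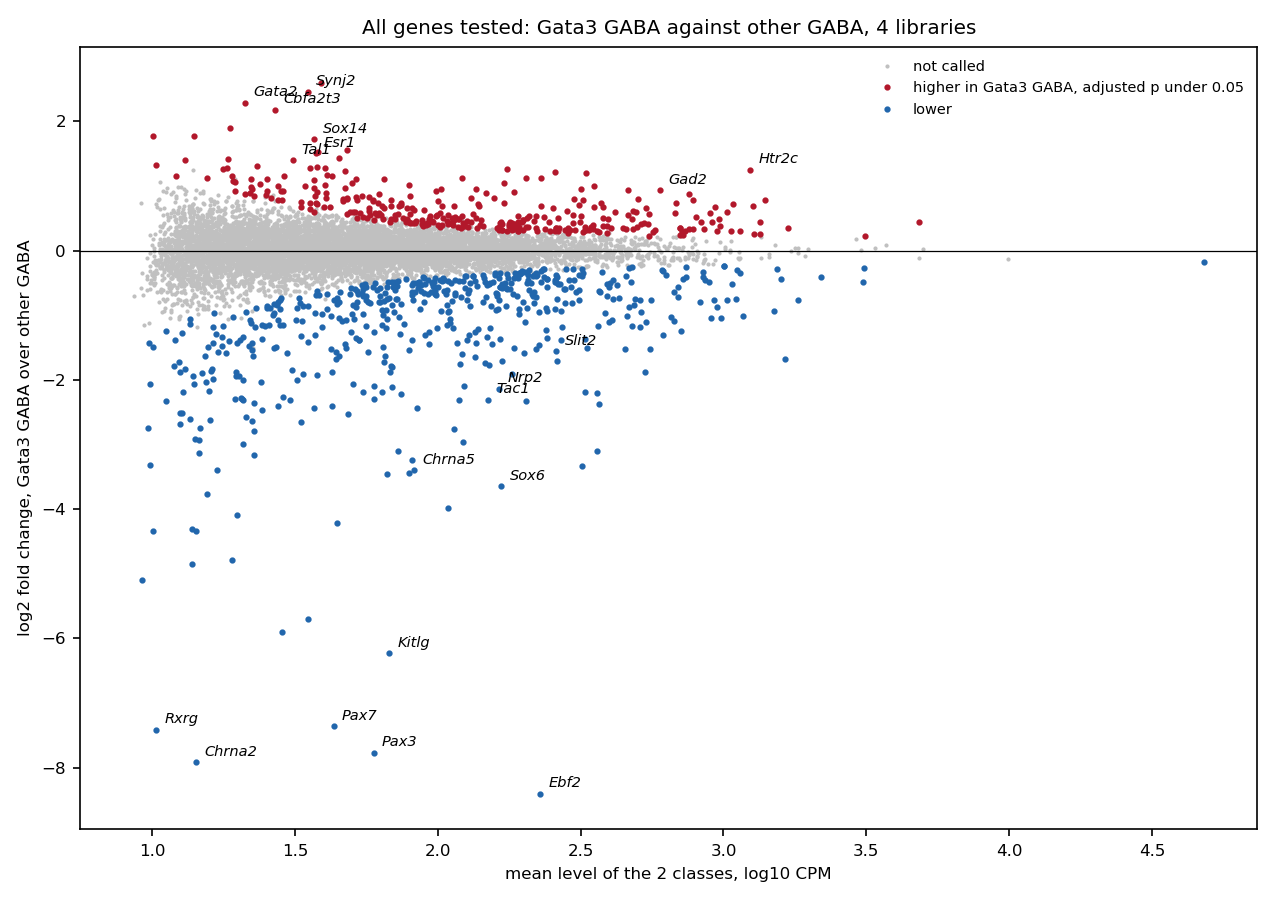
Each point is 1 of the 9510 genes tested, with its mean level (log10 CPM) on the x axis and its log2 fold change in Gata3 GABA against Gata3-negative GABA nuclei on the y axis, over 4 libraries. Called genes are coloured, and the decreases reach further from 0 than the increases, with Ebf2, Pax3 and Pax7 at the bottom.

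Transcription factors known to act with GATA3 were the first group examined. Gata2, Sox14 and Tal1 were all higher in members, although none of the 3 was used to choose the nuclei, while the level of Gata3 was fixed by the gate. Gata2 (ENSRNOG00000012347), the paralog that acts upstream of Gata3 in midbrain GABA precursors, stood at 31.2, 26.9, 32.4 and 51.6 CPM in members of female 1, female 2, male 1 and male 2, and at 8.66, 6.40, 4.04 and 8.15 in the comparison class. Every member library exceeded every comparison library, and the log2 fold change was 2.29 ± 0.29 (SE, 4 libraries, adjusted p = 8.7e-07). Sox14 (ENSRNOG00000022084), a SOX-family repressor of GABA neurons in the diencephalon and midbrain, was at 57.8, 58.2, 52.9 and 59.8 CPM against 17.3, 14.5, 19.5 and 15.4. Its members' libraries were nearly equal, and the log2 fold change was 1.73 ± 0.20 (adjusted p = 2.7e-07). Tal1 (ENSRNOG00000025051), a basic helix-loop-helix partner of GATA factors, was at 43.7, 40.3, 54.7 and 45.4 CPM against 23.3, 18.6, 15.5 and 8.15. The 2 ranges did not touch, and the log2 fold change was 1.40 ± 0.24 (adjusted p = 8.1e-05).

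Against the Pax/Ebf2-free nuclei the rise was 1.46 for Gata2 (adjusted p = 0.00733) and 0.85 for Sox14 (adjusted p = 0.0181). That of Tal1 fell to 0.58 and lost its call (adjusted p = 0.331). At least 1 UMI of Gata2, Tal1 or Sox14 was present in 175 members (70.6%), evenly over libraries with 44, 44, 43 and 44 nuclei, and in 126 comparison nuclei (17.2%). Only 2 members and 2 comparison nuclei carried both a UMI of these 3 genes and a UMI of Pax7, Pax3 or Ebf2. In oligodendrocyte nuclei Gata2 was detected in 0.0692%, Sox14 in 0.0865% and Tal1 in 0.156%, so free RNA of these genes was scarce. Within members the 3 factors did not favour the same nuclei: Gata2 with Tal1, Gata2 with Sox14 and Tal1 with Sox14 each occurred together slightly less often than the product of their shares would give (21, 18 and 24 nuclei against 23.6, 21.9 and 27.7).

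Start-site windows are shown for Gata3, which the gate fixed, and for the 3 factors that were higher in members. GATA proteins read a short motif that can be searched for in such windows. Each window spans 250 bases before to 50 bases after a RefSeq transcription start (build GRCr8, one start per gene). The motif AGATAA was searched on both strands, as were its variants with other permitted end letters, namely AGATAG and the pair TGATAA and TGATAG, and a match is in capitals.
Gata3, chr17:73553298-73553597, plus strand: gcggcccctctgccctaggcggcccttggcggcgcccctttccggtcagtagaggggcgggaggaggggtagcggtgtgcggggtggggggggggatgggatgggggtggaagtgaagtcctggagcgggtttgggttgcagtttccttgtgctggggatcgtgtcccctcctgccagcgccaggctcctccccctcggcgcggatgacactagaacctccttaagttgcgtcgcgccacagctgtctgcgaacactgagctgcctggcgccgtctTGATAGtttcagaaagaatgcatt
Gata2, chr4:122216031-122216330, plus strand: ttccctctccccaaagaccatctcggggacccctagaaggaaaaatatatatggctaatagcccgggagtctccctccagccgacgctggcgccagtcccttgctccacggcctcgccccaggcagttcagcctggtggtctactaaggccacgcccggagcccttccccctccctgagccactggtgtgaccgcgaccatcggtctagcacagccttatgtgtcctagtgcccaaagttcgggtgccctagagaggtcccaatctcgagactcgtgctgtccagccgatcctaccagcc
Tal1, chr5:133824214-133824513, plus strand: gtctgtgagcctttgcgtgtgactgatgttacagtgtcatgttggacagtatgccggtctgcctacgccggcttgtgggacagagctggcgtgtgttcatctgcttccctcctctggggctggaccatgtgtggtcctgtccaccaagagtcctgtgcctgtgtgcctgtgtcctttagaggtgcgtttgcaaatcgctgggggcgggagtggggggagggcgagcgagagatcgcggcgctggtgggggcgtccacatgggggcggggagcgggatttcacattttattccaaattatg
Sox14, chr8:109303177-109303476, minus strand: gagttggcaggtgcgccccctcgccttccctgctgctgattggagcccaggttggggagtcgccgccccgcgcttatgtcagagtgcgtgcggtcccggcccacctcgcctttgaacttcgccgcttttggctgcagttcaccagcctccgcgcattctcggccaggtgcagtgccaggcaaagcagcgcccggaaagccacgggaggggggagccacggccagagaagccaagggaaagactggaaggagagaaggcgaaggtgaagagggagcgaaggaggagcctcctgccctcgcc
Only the Gata3 window held a match, TGATAG, beginning 27 bases past the start. Of all 33469 windows of this length, 30.3% held 1 or more matches, so 1 in 4 windows is close to what the windows in general showed. Of the 12 genes with the largest increases described below, 8 had a window and 0 of those windows held a match. No binding was measured, and absence of these letters in 300 bases says nothing of more distant sites.

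The whole list of 29 factors of the GATA lineage had 15 genes past the filter on low counts. Of these, 5 were higher and 4 lower, beside 3.44% and 5.56% of all genes tested. The median log2 fold change was −0.27 against 0.01 over all genes tested. Beside the 3 genes above, the LIM-only cofactor Lmo4 (0.58 ± 0.17) and the forkhead factor Foxp1 (0.41 ± 0.13) rose by small amounts, and both lost their call against the Pax/Ebf2-free nuclei, with DESeq2 and without female 2 or male 1. Among the decreases, Nhlh2, a neuronal helix-loop-helix factor, had 1 UMI in members and was 43.4-fold lower by CPM (95% counting interval 7.63 to 1731). En2, the engrailed factor of the midbrain-hindbrain border, fell by 2.06 ± 0.35 and Lmo1, another LIM-only cofactor, by 1.62 ± 0.20, the last without a call against the Pax/Ebf2-free nuclei (−0.43). Foxp2, a forkhead factor of projection neurons, was at 120, 228, 99.1 and 96.9 CPM against 188, 205, 238 and 149 (log2 fold change −0.56 ± 0.14, adjusted p = 0.009), with female 2 above its own comparison value. The call on Foxp2 was lost without male 1 (−0.32), with DESeq2, with 2 or more Gata3 UMIs per member (−0.24) and with depth-matched comparison nuclei. The GATA cofactors Zfpm2 (−0.06 ± 0.10, at 412 to 514 CPM) and Zfpm1 (−0.33 ± 0.31), and Ldb1, Ldb2, Lmo3 and St18, did not pass the test. Fewer calls remained against the Pax/Ebf2-free nuclei, 2 higher and 2 lower of 12, with Lmo3 (−0.75) now among the lower ones. Over all genes tested there, 0.89% were higher and 1.56% lower.

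Of the homeodomain and other regional factors, 3 were higher and 11 lower of 29 that passed the filter, with a median of −0.31. Over all genes tested the shares were 3.44% and 5.56%. The paired-box factors Pax3 and Pax7, which mark dorsal midbrain domains, were close to absent in members. Pax3 (ENSRNOG00000013670) had 1 UMI in members against 103, 94.8, 108 and 170 CPM in the comparison class, a ratio of 272 (95% counting interval 48.7 to 10776). Pax7 (ENSRNOG00000018739) likewise had 1 UMI against 90.6, 104, 72.7 and 76.1 CPM, a ratio of 208 (37.1 to 8220). Ebf2 (ENSRNOG00000011548), a helix-loop-helix factor of postmitotic neurons, had 3 UMIs spread over 3 libraries and was at 591, 416, 341 and 468 CPM in the comparison class, a ratio of 359 (123 to 1741). No member library came near any comparison library for these 3 genes.

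Sox6, an SRY-related factor found in several interneuron types and in ventral midbrain neurons, was at 20.3, 61.2, 12.0 and 2.06 CPM against 302, 348, 313 and 275. A single member held 39 of the 62 Sox6 UMIs in the class, and without female 2 the log2 fold change moved from −3.65 to −4.64. The fall of Sox6 was not called against the Pax/Ebf2-free nuclei (−0.72). Bcl11b, a zinc-finger factor of projection neurons, was at 53.1, 43.3, 52.9 and 78.4 CPM against 21.3, 13.4, 17.5 and 23.6 (1.53 ± 0.20, adjusted p = 1.5e-06), and 0.87 against the Pax/Ebf2-free nuclei (adjusted p = 0.0186). The zinc-finger homeobox genes Zfhx3 (0.95 ± 0.11) and Zfhx4 (0.94 ± 0.09) were higher in every library, yet at 0.13 and 0.33 neither was called against the Pax/Ebf2-free nuclei. Some further factors were chosen after their values were seen. Meis1 fell by 2.10 ± 0.15 and Pbx3 by 1.38 ± 0.10, and both calls held against the Pax/Ebf2-free nuclei. Meis2, a homeodomain partner of PBX proteins, was at 609, 526, 350 and 701 CPM in members and showed no called difference in the full comparison (0.17 ± 0.13, adjusted p = 0.544). Against the Pax/Ebf2-free nuclei it was higher by 0.90 ± 0.19 (adjusted p = 0.0142), as were Ebf3 (1.01) and the orphan receptor Esrrg (0.94).

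**Figure D2:**
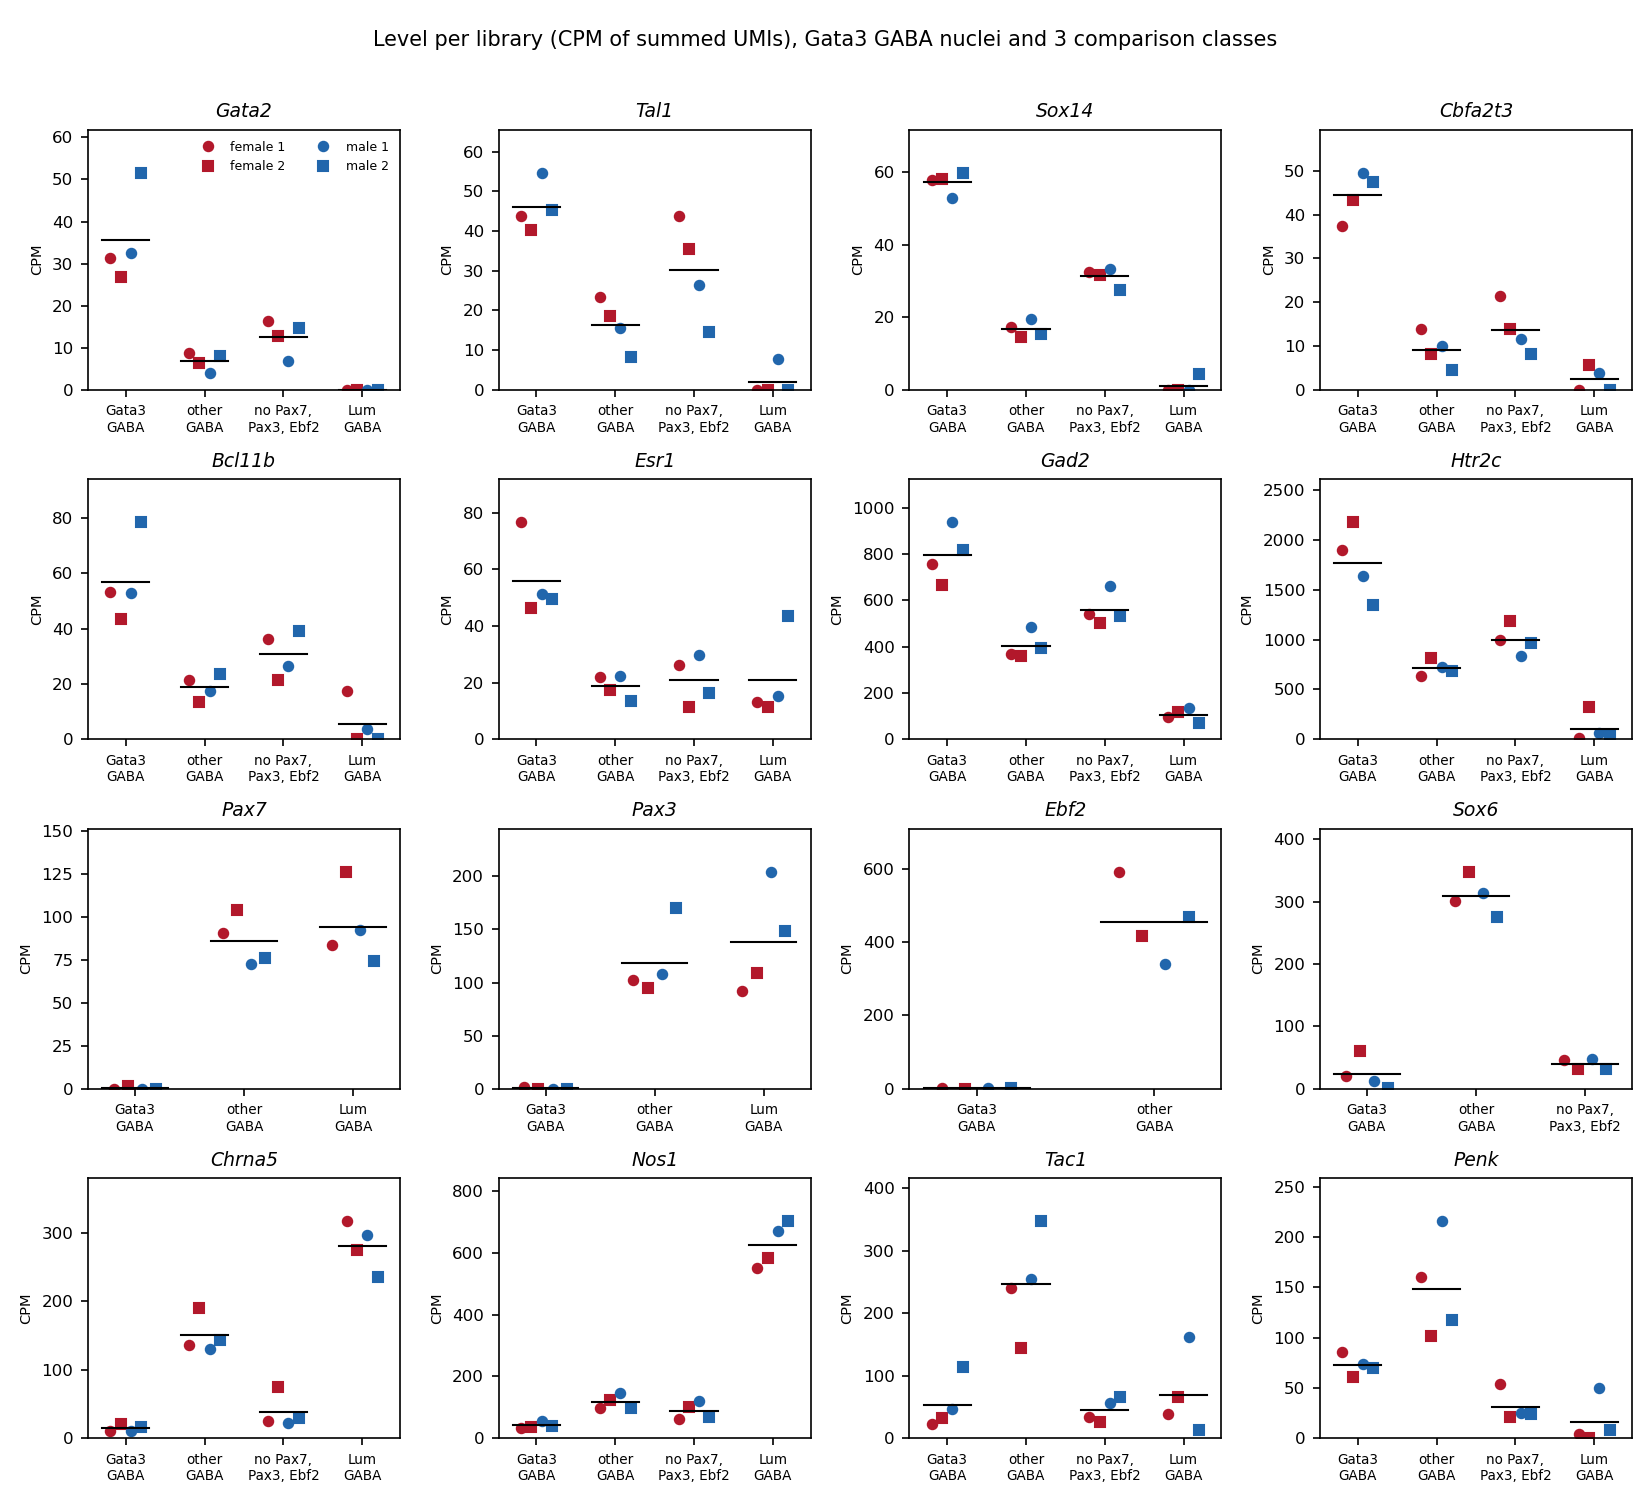
CPM of 16 genes (linear axes from 0) in each of the 4 libraries, for Gata3 GABA nuclei, Gata3-negative GABA nuclei (other GABA on the axis) and, where tested, the Pax/Ebf2-free and Lum GABA nuclei, with a black bar at the mean. The points of Gata2, Sox14 and Tal1 in Gata3 GABA nuclei lie above those of the Gata3-negative class in all 4 libraries, and Pax3, Pax7 and Ebf2 lie at or near 0.

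Among the 12 largest increases were Gata2, Sox14 and Bcl11b, described above. Synj2, synaptojanin 2, a phosphoinositide phosphatase, was even over libraries at 60.9, 61.2, 47.8 and 68.1 CPM against 8.66, 9.89, 11.4 and 11.8 (2.46 ± 0.22, adjusted p = 2.3e-09). A Synj2 UMI was present in 44.3% of oligodendrocyte nuclei and in 62 of the 248 members, and the rise was 2.87 once nuclei with 10 or more oligodendrocyte marker UMIs were left out of both classes.

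Cbfa2t3, a transcriptional corepressor that forms complexes with TAL1 and GATA factors in blood cells, was at 37.5, 43.3, 49.5 and 47.4 CPM against 14.0, 8.14, 10.1 and 4.53 (2.18 ± 0.27, adjusted p = 6e-07). Its member libraries lay within a narrow band, and the rise against the Pax/Ebf2-free nuclei was 1.65 (adjusted p = 0.002). Esr1, the estrogen receptor alpha, was at 76.6, 46.3, 51.2 and 49.5 CPM against 22.0, 17.4, 22.2 and 13.6 (1.51 ± 0.20, adjusted p = 2.3e-06), and kept a rise of 1.40 against the Pax/Ebf2-free nuclei. Further increases were those of Kcns3 (1.90 ± 0.31), a modulatory potassium channel subunit, Pparg (1.77 ± 0.35), a nuclear receptor, Cpne9 (1.56 ± 0.19), a copine, and Lmo7 (1.43 ± 0.20). The last was Gpr139 (1.42 ± 0.28), a receptor for aromatic amino acids, whose rise was not called against the Pax/Ebf2-free nuclei (0.83). Pparg, at 12.5, 38.8, 15.4 and 20.6 CPM in members, was not called without female 2 (adjusted p = 0.0671).

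Among the 8 largest decreases, Ebf2, Pax3 and Pax7 are given above. Chrna2, the nicotinic acetylcholine receptor alpha2 subunit, had 0 UMIs in the 248 members and 34.0, 37.2, 18.9 and 23.6 CPM in the comparison class. Against a floor of 3 UMIs over the whole member class it was at least 23.1-fold lower. The retinoid receptor Rxrg also had 0 UMIs in members and was at least 16.4-fold lower by the same floor. Kitlg, the KIT ligand, had 4 UMIs in members and 143, 114, 96.3 and 180 CPM in the comparison class (−6.22 ± 0.31). The small proteoglycan gene Epyc had 3 UMIs and was 56.0-fold lower (95% counting interval 19.0 to 273). Each of the decreased genes named here had a UMI in 4 or fewer members.

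The GABA machinery genes were examined for the transmitter phenotype beyond the gate. Of 12 that passed the filter, 3 were higher and 1 lower, beside 3.44% and 5.56% of all genes, with a median of −0.05. Gad2, the second GABA-synthesising enzyme, was at 755, 667, 936 and 819 CPM in members and 368, 361, 484 and 393 in the comparison class (0.94 ± 0.07, adjusted p = 1.2e-10). It was detected in 97.6% of members and 76.7% of comparison nuclei, against 2.99% of oligodendrocyte nuclei. Against the Pax/Ebf2-free nuclei Gad2 rose by 0.50 (adjusted p = 0.00104). The presynaptic genes Cplx1 (0.57 ± 0.11) and Syt2 (1.04 ± 0.21), a complexin and a fast calcium sensor, rose, and Cplx1 alone of the 2 kept its call (0.68). Gad1 and Slc32a1 were in the gate and were not tested.

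Of 11 neuropeptide genes tested, 1 was higher and 5 were lower, beside 3.44% and 5.56% of all genes, with a median of −0.85. Against the Pax/Ebf2-free nuclei 1 was higher and 1 lower of 9, beside 0.89% and 1.56% of all genes tested there, with a median of −0.17. Tac1, the substance P precursor, was at 23.4, 32.9, 46.1 and 113 CPM against 241, 144, 255 and 347 (−2.31 ± 0.16, adjusted p = 1.1e-11). All 4 member libraries were below all comparison libraries, yet the difference was 0.16 against the Pax/Ebf2-free nuclei. Penk, the enkephalin precursor, was at 85.9, 61.2, 73.4 and 70.1 CPM against 160, 101, 216 and 118 (−1.05 ± 0.13), and its direction turned with the comparison class. The Pax/Ebf2-free nuclei had 53.9, 21.6, 25.3 and 24.4 CPM of Penk, so that members were higher by 1.22 ± 0.20 (adjusted p = 0.00163), and with depth-matched comparison nuclei the difference was 0.11. Sst, somatostatin, was at 42.2, 26.9, 120 and 57.8 CPM in members and fell by 0.90 ± 0.20, with −0.91 against the Pax/Ebf2-free nuclei. Nts, neurotensin, fell by 1.29 ± 0.36 and Scg2, a secretogranin, by 1.02 ± 0.09, and neither was called against the Pax/Ebf2-free nuclei. The call on Nts was also lost with DESeq2, without female 2 and without male 1. Vgf, the precursor of several secreted peptides, rose by 0.89 ± 0.15 and was likewise not called there (0.45).

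Of 9 peptide receptor genes tested, 1 was higher and 4 were lower, beside 3.44% and 5.56% of all genes, with a median of −1.17. Against the Pax/Ebf2-free nuclei 0 were higher and 1 lower of 8, beside 0.89% and 1.56% of all genes tested there. Trhr, the thyrotropin-releasing hormone receptor, was at 7.81, 7.47, 3.42 and 4.13 CPM against 28.0, 54.1, 44.5 and 32.6 (−2.79 ± 0.31), and kept its call against the Pax/Ebf2-free nuclei (−2.34, adjusted p = 0.00118). Oprm1, the mu opioid receptor through which opioids silence VTA GABA neurons, was at 87.5, 122, 92.2 and 35.1 CPM against 178, 247, 177 and 167 (−1.21 ± 0.13, adjusted p = 9.7e-08). Male 2 was the lowest member library by a wide gap. The fall of Oprm1 shrank to −0.48 and was not called against the Pax/Ebf2-free nuclei (adjusted p = 0.179). The neurokinin receptor Tacr3 (−1.39 ± 0.15) changed sign there (0.32) and the delta opioid receptor Oprd1 (−1.17 ± 0.25) lost its call. Hcrtr2, the orexin receptor (0.82 ± 0.24), was not called against the Pax/Ebf2-free nuclei, with female 1 and female 2 at 56.2 and 79.1 CPM and male 2 at 22.7, below its own comparison value of 43.5, and leaving out any of female 1, female 2 or male 1 ended the call.

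The list of monoamine, acetylcholine and cannabinoid receptors had 2 higher and 6 lower genes of 15, beside 3.44% and 5.56% of all genes. Its median was −0.42, and both higher genes were serotonin receptors. Htr2c (ENSRNOG00000030877), an excitatory Gq-coupled serotonin receptor, was at 1897, 2177, 1640 and 1349 CPM against 638, 818, 728 and 682. The lowest member library stood well above the highest comparison library, and the log2 fold change was 1.25 ± 0.08 (adjusted p = 1.6e-12). An Htr2c UMI was present in 85.5% of members and 48.9% of comparison nuclei, against 2.35% of oligodendrocyte nuclei, or 76.6%, 38.2% and 1.57% at 2000 UMIs. The rise held at 0.82 against the Pax/Ebf2-free nuclei (adjusted p = 1.4e-05). Htr4, a Gs-coupled serotonin receptor, was at 300.0, 255, 282 and 287 CPM against 123, 135, 135 and 108 (1.12 ± 0.10), with 0.45 (adjusted p = 0.0272) against the Pax/Ebf2-free nuclei.

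Among the acetylcholine receptors, Chrna2, Chrna3, Chrna5 and Chrm5 were the ones called, all lower. Chrna5, a nicotinic subunit that alters receptor calcium permeability, was at 10.9, 20.9, 10.2 and 16.5 CPM against 137, 191, 131 and 143 (−3.40 ± 0.17), and −1.36 against the Pax/Ebf2-free nuclei (adjusted p = 0.00761). Chrna3, another nicotinic subunit, had 2 UMIs in members and was 32.0-fold lower (95% counting interval 8.70 to 266). The muscarinic receptor Chrm5 fell as well (−1.59 ± 0.27, and −1.39 against the Pax/Ebf2-free nuclei). Of the other transmitter genes, Nos1, neuronal nitric oxide synthase, was at 34.4, 37.3, 54.7 and 41.3 CPM against 99.2, 123, 148 and 98.8 (−1.53 ± 0.14), a fall that held at −1.09. Slc5a7, the choline transporter, had 0 UMIs in both female member sums and 1.71 and 6.19 CPM in the male ones, against 13.4 to 22.2 CPM.

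Of 16 GABA and glycine receptor genes tested, 9 were higher and 0 lower in the full comparison, beside 3.44% higher over all genes, and the median was 0.34. Gabrb2, a beta subunit of GABA-A receptors, was at 712, 679, 594 and 578 CPM against 406, 305, 360 and 374 (0.79 ± 0.08). Its lowest member library was above the highest comparison library. Glra1, the alpha1 glycine receptor subunit, rose by 1.15 ± 0.20 (65.6, 83.6, 34.2 and 51.6 CPM against 32.6, 22.7, 16.8 and 33.5), and Gabra4, an alpha subunit found in extrasynaptic receptors, by 1.01 ± 0.14. The call on Glra1 was lost with depth-matched comparison nuclei (0.78, adjusted p = 0.051). None of the 16 was called against the Pax/Ebf2-free nuclei, where only 0.89% of all genes tested were called higher and 1.56% lower. The median of the list was 0.16 there, and Gabrb2, Gabra4 and Glra1 stood at 0.29, 0.49 and 0.38.

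**Figure D3:**
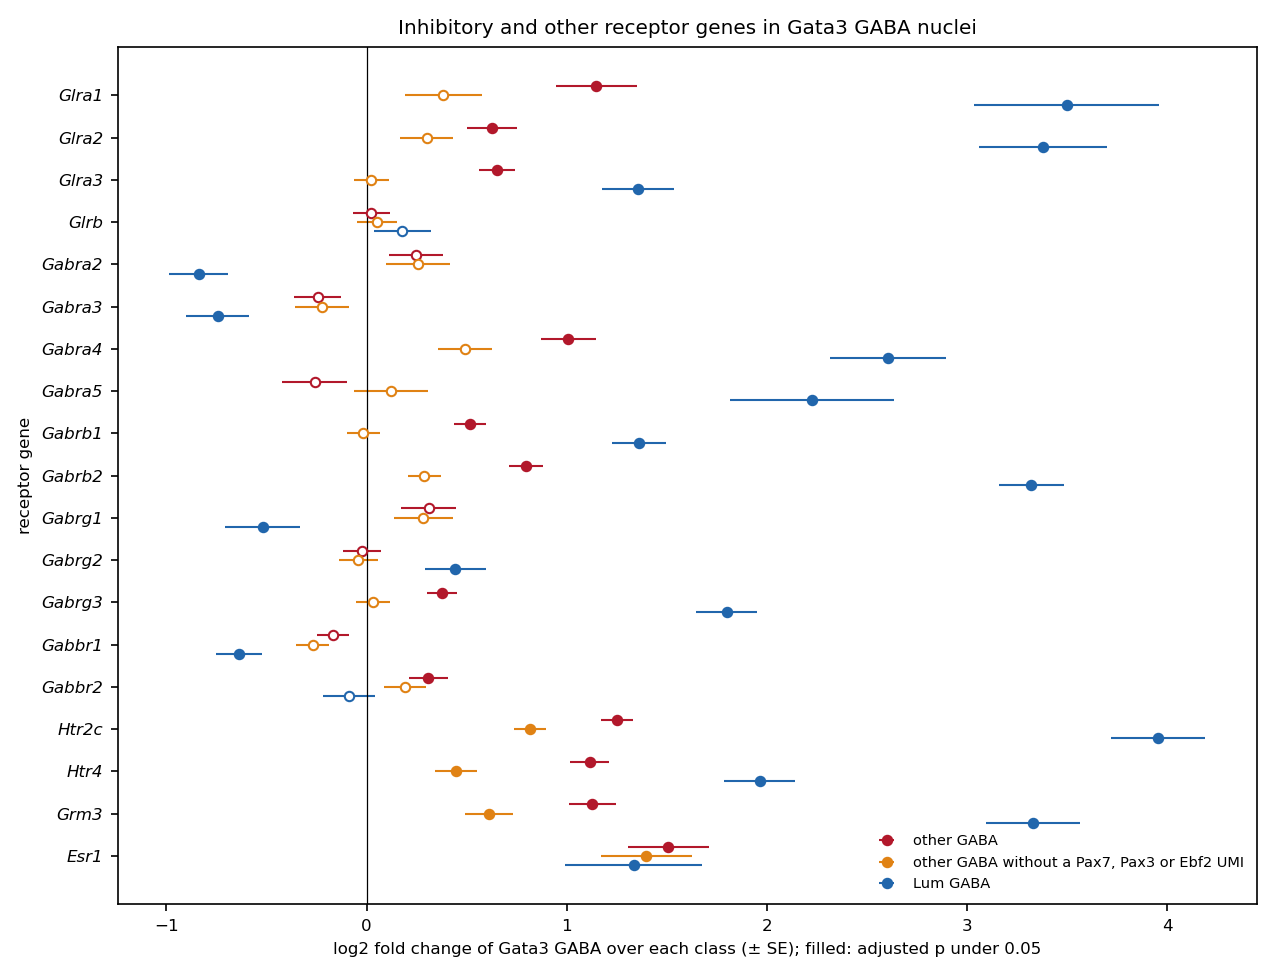
Log2 fold change ± SE (4 libraries) of selected receptor genes in Gata3 GABA nuclei against Gata3-negative GABA nuclei, against the Pax/Ebf2-free nuclei and against Lum GABA nuclei, with filled symbols for adjusted p under 0.05. Htr2c, Htr4, Grm3 and Esr1 are filled and above 0 in all 3 comparisons, while Gabrb2, Gabra4 and Glra1 are open against the Pax/Ebf2-free nuclei.

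Glutamate receptors moved in both directions, 4 higher and 7 lower of 21, beside 3.44% and 5.56% of all genes, with a median of −0.02. Grm3, a Gi-coupled metabotropic receptor, was at 256, 255, 454 and 297 CPM against 70.6, 149, 189 and 161 (1.13 ± 0.12, adjusted p = 3e-08). Grm3 was also detected in 93.5% of oligodendrocyte nuclei, and its log2 fold change was 1.81 when nuclei with 10 or more oligodendrocyte marker UMIs were left out. Against the Pax/Ebf2-free nuclei it rose by 0.61 (adjusted p = 0.00686). Grm8, a presynaptic metabotropic receptor, differed by 0.30 ± 0.07 in the full comparison, a call lost with DESeq2 and without female 1, and by 0.52 against the Pax/Ebf2-free nuclei (adjusted p = 0.0017). The AMPA receptor subunits Gria1 (−0.59 ± 0.09) and Gria3 (−0.63 ± 0.08) and the kainate subunit Grik1 (−0.75 ± 0.14) fell. Gria1 was not called against the Pax/Ebf2-free nuclei (−0.39), and Gria3 and Grik1 changed sign there (0.24 and 0.21). A small increase of Grm5 (0.33) was not called there either.

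Calcium-binding proteins and channels of fast-spiking neurons had 6 higher and 10 lower genes of 33, beside 3.44% and 5.56% of all genes. Their median was −0.20. Pvalb, the calcium buffer parvalbumin, was low at 23.4, 8.96, 39.3 and 28.9 CPM against 9.99, 4.07, 10.8 and 16.3 (1.26 ± 0.29, adjusted p = 0.00373), and higher in members in each library. It rose by 1.49 against the Pax/Ebf2-free nuclei (adjusted p = 0.0228) but was not called without male 1 (adjusted p = 0.106) or with DESeq2 (adjusted p = 0.147). The potassium channel genes Kcna2 (0.62 ± 0.14) and Kcnc2 (0.56 ± 0.08) and the beta subunit Kcnab2 (0.43 ± 0.13) rose, and none of the 3 was called against the Pax/Ebf2-free nuclei. The channel modulator Kcnip1 fell by 1.11 ± 0.09 and the calcium-binding Necab1 by 1.03 ± 0.21, and both kept their calls (−0.57 and −1.17), although Necab1 lost its call without female 2 and with DESeq2. Kcnh1 (−1.30 ± 0.13) was at −0.07 against the Pax/Ebf2-free nuclei, and Hcn4 (−1.17 ± 0.29), a pacemaker channel, lost its call without female 1 and with DESeq2.

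Axon guidance and adhesion genes were split, 11 higher and 17 lower of 54, beside 3.44% and 5.56% of all genes, with a median of −0.03. Robo1, a receptor for SLIT proteins, was at 1280, 1056, 1078 and 1205 CPM against 831, 561, 634 and 801 (0.68 ± 0.07), and Slit3, a SLIT ligand, rose by 1.09 ± 0.19. Slit2, another SLIT ligand, fell by 1.55 ± 0.12 (141, 88.1, 196 and 120 CPM against 344, 420, 419 and 352), and the semaphorin receptor Nrp2 by 2.14 ± 0.12. Against the Pax/Ebf2-free nuclei Robo1 (0.46), Slit2 (−1.11), Nrp2 and the ephrin receptor Ephb1 (0.70, from 0.95 ± 0.09) kept their calls. Slit3 and Cntn6, a contactin (0.68 ± 0.10), and the ephrin Efnb2 (−1.41 ± 0.23) did not. The semaphorin Sema3a fell by 2.29 ± 0.34 in the full comparison and had no value against the Pax/Ebf2-free nuclei, nor had Hcn4. Of 13 perineuronal net and matrix genes, 0 rose and 4 fell, beside 3.44% and 5.56% of all genes, with a median of −0.19. The receptor phosphatase Ptprz1 (−0.77 ± 0.11) and tenascin-R (Tnr, −0.61 ± 0.10) kept their calls against the Pax/Ebf2-free nuclei, and Adamts17 and Col19a1 did not.

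**Figure D4:**
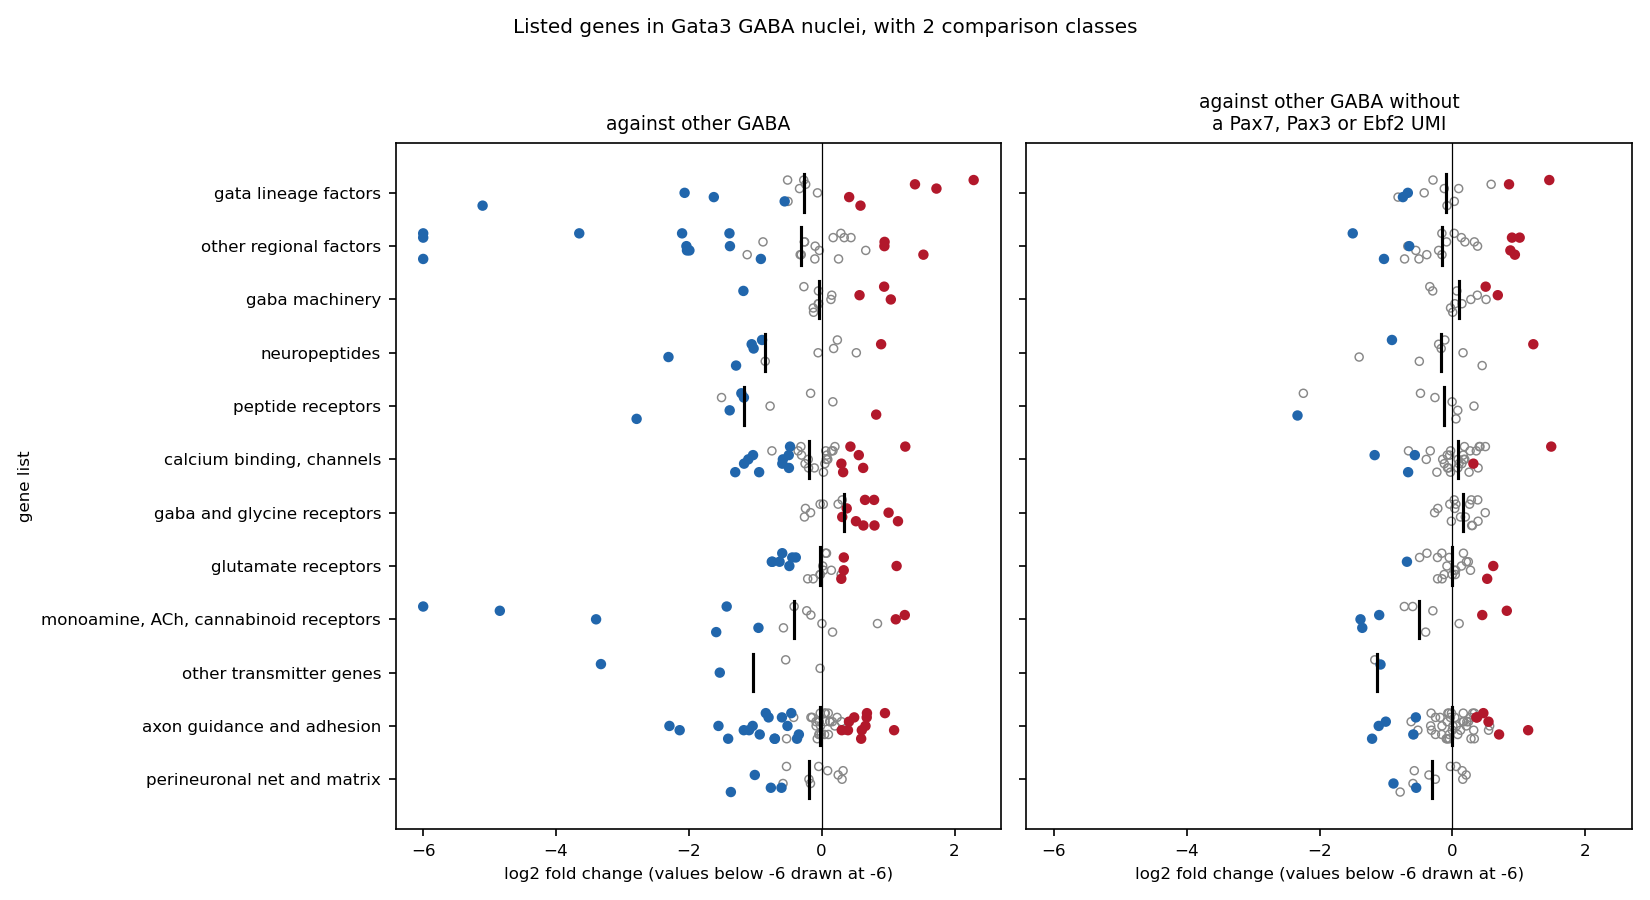
Log2 fold changes of the genes of 12 lists that passed the filter, against all Gata3-negative GABA nuclei and against the Pax/Ebf2-free nuclei, with a black bar at each list's median and values below −6 drawn at −6. The medians of neuropeptides and peptide receptors move from −0.85 and −1.17 to −0.17 and −0.14, and that of GABA and glycine receptors from 0.34 to 0.16.

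The largest decreases against the Pax/Ebf2-free nuclei, chosen after their values were seen, were in Egfr (the epidermal growth factor receptor) and Gpr149 (an orphan receptor). Egfr was at 7.81, 16.4, 20.5 and 8.25 CPM in members and 84.1, 157, 63.3 and 66.6 in those nuclei (−2.79 ± 0.25, adjusted p = 3.3e-06). Gpr149 was at 17.2, 13.4, 15.4 and 16.5 CPM against 100.4, 105, 66.7 and 68.2 (−2.46 ± 0.21). The homeobox gene Prox1 was also lower, with 16 UMIs in members (−2.24 ± 0.38). Among increases, the semaphorin Sema3e was at 209, 252, 143 and 208 CPM against 71.5, 140, 57.5 and 107 (1.14 ± 0.13, adjusted p = 6.8e-05). In each of these 4 genes the 2 classes did not overlap over libraries, which adds no support because the genes were picked for their change. The share of all genes without overlap in this comparison is not given here.

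A second GABA population of the same tissue, 136 nuclei with Lum, Gad1 and Slc32a1 and without Gata3, Slc17a6 and Isl1 (25, 42, 33 and 36 per library, median 6879.5 UMIs), lay further away. Between it and the members 1623 of 7181 genes (22.6%) were called, 714 higher (9.94%) and 909 lower (12.7%) in members, and 2293 genes (31.9%) had an unadjusted p under 0.05. Gata2 and Npas1 had 0 UMIs in Lum GABA nuclei. Robo1 was 4.24 ± 0.17 lower there than in members on the log2 scale. Tmem132d, a membrane protein gene, was at 286, 417, 176 and 159 CPM in members and had a UMI in 1 of the 136 Lum GABA nuclei. An unnamed gene, AABR07033184.1, was 5.60 ± 0.25 higher in members and 1.19 ± 0.08 higher than in Gata3-negative GABA nuclei, present in 86.3% of members.

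Genes that were higher in Lum GABA nuclei included Pax3, Pax7, Chrna2 and Rxrg, all at 0 or 1 UMI in members. Ecel1, a membrane peptidase, had 3 UMIs in members and was at 242, 120, 220 and 174 CPM in Lum GABA nuclei. Nos1 was at 549, 584, 671 and 702 CPM there and differed by −4.02 ± 0.15, and Kcnip1 by −3.06 ± 0.11. Nts was at 237, 155, 189 and 270 CPM in Lum GABA nuclei and at 1.71 to 18.7 CPM in members. Gad2 was 2.76 ± 0.15 higher in members than in Lum GABA nuclei. Esr1 rose in both comparisons (1.33 ± 0.34 here), while Foxp2 was 1.26 ± 0.17 lower in members. The 2 comparisons share the member sums and were not set against each other by a test.

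Sex was the only factor between libraries. Within the members 6 of 8720 genes (0.0688%) differed, 1 higher (0.0115%) and 5 lower (0.0573%) in females, and 432 genes (4.95%) had an unadjusted p under 0.05. The 5 lower genes were AC241873.1, Kdm5d, Eif2s3y, Ddx3 and AC239701.4. Eif2s3y, a translation factor gene of the Y chromosome, had 0 UMIs in female members and 93.9 and 74.3 CPM in male ones. Kdm5d, a Y-linked histone demethylase, was at 1.56 and 1.49 CPM in females and 76.9 and 96.9 in males. The gene higher in females, AABR07039356.2, was at 42.2 and 148 CPM in females and at 0 in both male sums, and it was not called with DESeq2 or without doublet calls. In Gata3-negative GABA nuclei, with no test there, AABR07039356.2 was at 52.6 and 154 CPM in females and at 0 in males. The 5 lower genes were also lower in females in those nuclei, with Kdm5d at 2.00 and 3.49 CPM against 118 and 110 in males. Esr1 (0.31, female minus male), Gata2 (−0.48) and Sox14 (0.07) had adjusted p values above 0.96. The count was not stable at this depth: it was 61, 7, 25 and 53 without female 1, female 2, male 1 and male 2.

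A test of whether the sex difference itself differed between members and Gata3-negative GABA nuclei called 4 of 10189 genes (0.0393%), 3 higher (0.0294%) and 1 lower (0.00981%), with 429 (4.21%) at an unadjusted p under 0.05 and 0 called with DESeq2. Ebf1, an EBF-family factor, was at 82.8 and 47.8 CPM in female and 154 and 182 in male members, against 271, 178, 164 and 201 in the comparison class. The female members were below the male ones, the comparison libraries showed no such order, and the interaction was −1.67 ± 0.21 (adjusted p = 0.00304). An Ebf1 UMI was present in 61 members (24.6%), but the UMIs were concentrated: 5 nuclei held 43.7% of the 263 UMIs, and 1 nucleus held 42. Arpp21, a cAMP-regulated phosphoprotein of neurons, was at 252 and 299 CPM in female and 178 and 190 in male members, against 63.3, 106, 131 and 150 (1.32 ± 0.21, adjusted p = 0.0227). Tmem132d was at 286, 417, 176 and 159 CPM against 210, 223, 226 and 251 (1.19 ± 0.20, adjusted p = 0.0376). The calls on Arpp21 and Tmem132d were lost without doublet calls and with depth-matched comparison nuclei, that on Arpp21 also without female 1 and that on Tmem132d without female 2. Vip, the fourth, rested on 21 UMIs in 2 female member nuclei and 0 in male members. The counts without female 1, female 2, male 1 and male 2 were 6, 15, 15 and 30.

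The spread among members was described by the variance between nuclei relative to counting error, given in the library where it was lowest. Over 5291 genes with at least 100 UMIs in members its median was 0.977, a figure that is low by construction because it takes the lowest of 4 libraries. It was 17.6 for the synaptic adhesion gene Lrrtm4, 13.5 for Grm8 and 9.40 for Htr2c. Among transcription factors it was 9.42 for Nfib, 9.02 for Foxp2 and 7.92 for Meis2, and among peptides 7.99 for Tac1 and 7.12 for Penk.

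When the 200 most variable genes were clustered (Leiden method, resolution 0.6), 10 subgroups of 7 to 77 nuclei appeared. Resolutions of 0.3 and 1.0 gave 7 and 12. The genes that lead a subgroup were used to form it, so they describe it and carry no test, and they were chosen after their values were seen. Subgroup 1 (77 nuclei, 17 to 22 per library) was led by Npas1, a helix-loop-helix PAS factor, at 91.0 CPM against 24.9 in the other members, with Ldb2, Pbx3 and the neuregulin receptor Erbb4. Subgroup 2 (46 nuclei, 14, 12, 5 and 15 per library) was led by Igfbp7, Chn2, Synj2, Arpp21 and Pvalb, and held 16 of the 26 members with a Pvalb UMI and 30 of the 62 with a Synj2 UMI. All 46 of its nuclei and all 25 of subgroup 3 had a Meis2 UMI, against 108 of all 248 members. Subgroup 3 (10, 5, 3 and 7 per library) was led by Gpr139, Bcl11b and Kcns3, 3 of the 12 largest increases of the whole class.

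Subgroup 4 (21 nuclei, 4, 11, 6 and 0 per library) stood out by Sorcs1, a sorting receptor of the VPS10 family, at 5399 CPM against 402 in the other members, with the channel gene Trpc4. It also held the highest Oprm1 level, 345 CPM, and 19 of its 21 nuclei had a Sox14 UMI. Subgroup 4 held 73 of the 209 Oprm1 UMIs of members. Male 2, which had no nucleus in it, was the library with the lowest Oprm1 level, 35.1 CPM. Whether the 2 are linked was not tested. Subgroup 5 (18 nuclei) was led by the oligodendrocyte genes Hapln2, Mal, Cldn11 and Mog, at 6015 CPM of oligodendrocyte markers, and 9 of its nuclei were doublet calls.

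Subgroup 6 (15 nuclei, 8 of them from male 1) was led by Meis1, at 426 CPM against 25.5, and Shisa6. Subgroup 7 (15 nuclei in all 4 libraries) was led by Lrat, Vcan, Cck, Foxa2 and Ebf3. It held 11 of the 40 members with a Penk UMI and 8 of the 27 with Tac1, and 0 of the 80 with Sox14. Its oligodendrocyte markers summed to 1775 CPM with 2 doublet calls. Subgroup 8 (13 nuclei) was led by Tcf7l2, a Wnt pathway factor, at 600 CPM against 18.0, with Sst and Tac1, and subgroup 9 (11 nuclei) by Tfap2b, an AP-2 factor, at 348 CPM against 6.96, with Lmo7. Subgroup 10 (7 nuclei, 2, 3, 1 and 1 per library) was led by Slc17a8, the vesicular glutamate transporter VGLUT3, with a UMI in 7 of 7 nuclei. Chrna5 was at 451 CPM in it against 3.45 in the other members, so that 7 nuclei held most of the Chrna5 of the class.

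**Figure D5:**
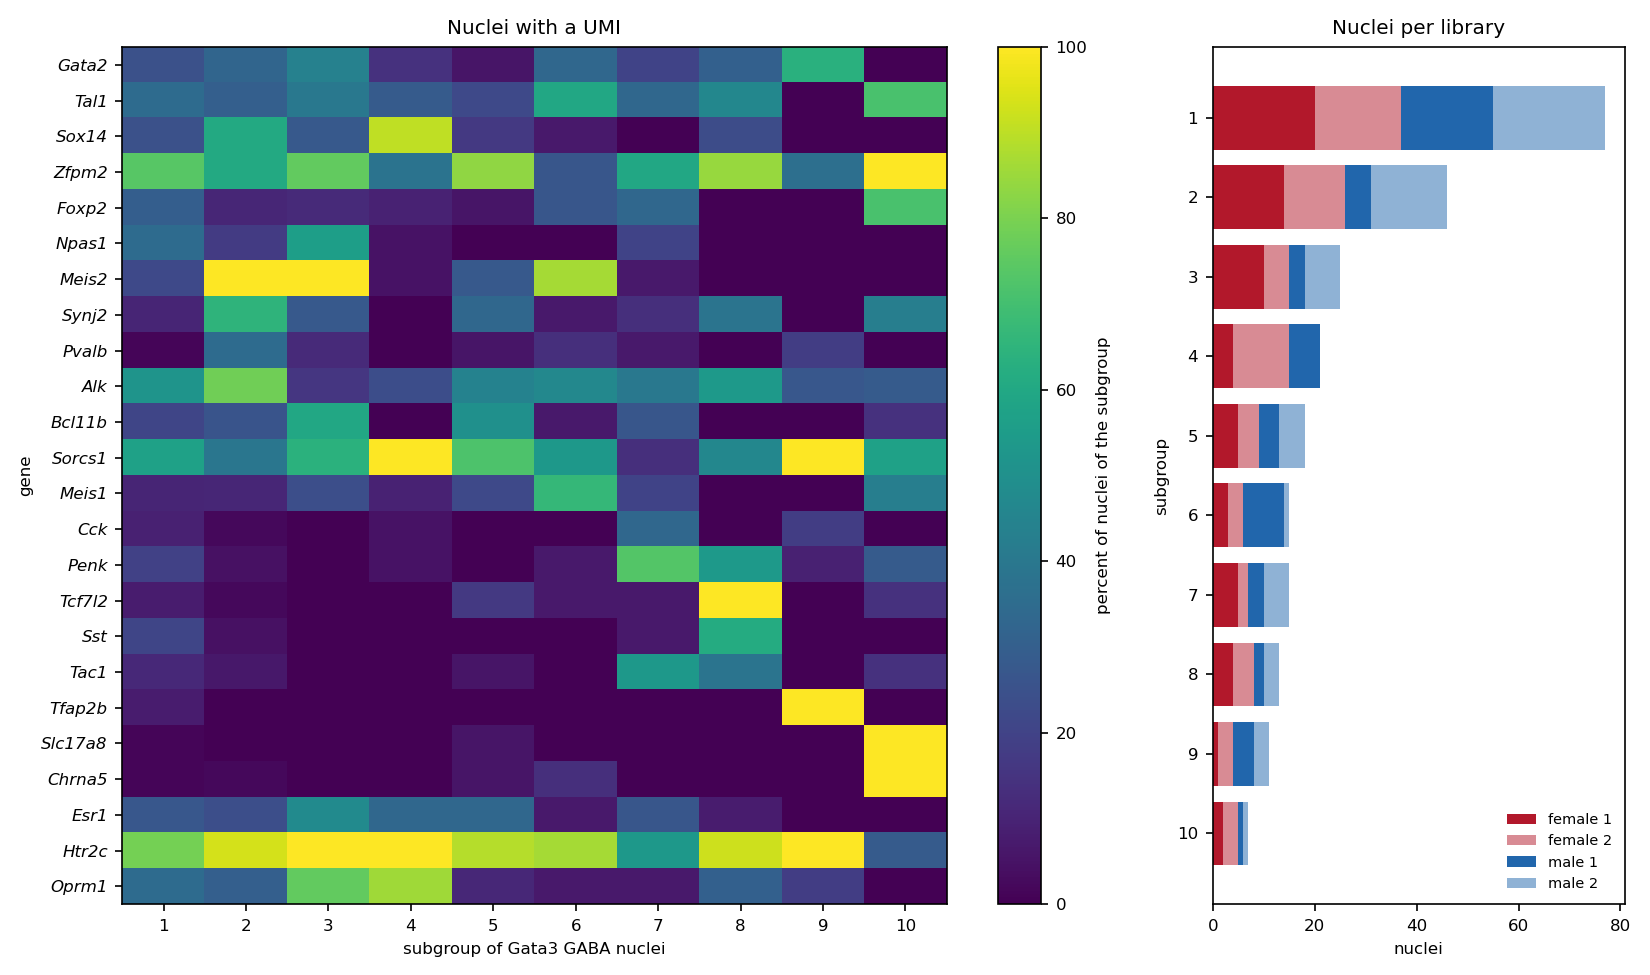
Percent of nuclei with at least 1 UMI of selected genes in each of the 10 subgroups of Gata3 GABA nuclei, and the number of nuclei of each subgroup in each library. Meis2 is present in every nucleus of subgroups 2 and 3, Tcf7l2 in subgroup 8, Tfap2b in subgroup 9 and Slc17a8 in subgroup 10.

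Some pairs of genes were found in the same members more or less often than the product of their shares gives. Penk and Tac1 were found together in 14 nuclei, where that product gives 4.35, and Sst with Tcf7l2 in 9 against 2.83. Meis2 and Pvalb met in 22 nuclei against 11.3. Meis2 and Penk met in 6 against 17.4, and Npas1 with Pvalb in 1 against 5.56. Deeper nuclei hold more genes of every kind, which raises all such counts, and the pairs are a description of these 248 nuclei.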

How the data were processed

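Single-nucleus RNA was measured in 4 libraries (2 female, 2 male). The deposited values are raw UMI counts per gene and barcode, with 32883 features, made with Cell Ranger on the rn6 build per the submitters' processing notes, and the file headers name software version 3.0.2. No label or header states how intronic reads were treated. Coordinates of start-site windows are RefSeq's on GRCr8.

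Nuclei were chosen by UMI counts of 6 gating genes, which were left out of the tests. Class sums of UMIs in each library entered edgeR 4.0.16 (R 4.3.3; quasi-likelihood, TMM scaling, filterByExpr, library as block except in the sex test, two-sided, Benjamini-Hochberg adjustment over all genes tested). A call means an adjusted p under 0.05. DESeq2 1.42.0 served as a second tool. For shares of nuclei the test was exact permutation over libraries, with Wilson 95% intervals. Intervals and floors (3 counts) cover counting error only. Doublets were scored with Scrublet (scanpy 1.11.5) (980 barcodes marked) and were kept except in 1 alternative. Subgroups came from leidenalg 0.10.2 on 200 genes and 15 principal components.

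Members and gene lists were chosen with earlier results of these data known. Named genes were the gating genes, the 12 largest increases and 8 largest decreases (absolute log2 fold change over 1, at least 20 CPM in the higher class, 1 direction in all 4 libraries), up to 4 called genes per direction and list at 10 CPM or more, all tested GATA-lineage factors, up to 5 genes of lowest p in the sex and interaction tests, and the 5 largest changes each way against Lum GABA nuclei. Other names were chosen after their values were seen. Some genes that the rule names are not reported here.

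The replicate numbers are shared by the sexes in the labels, but nothing ties a female pool to a male pool. Alternatives covered scaling, filter, depth, gate, doublets, block and each library. The tests were tried on simulated counts with 200 changed genes, all of at least 200 UMIs and with a log2 change of 1 or 2 in size. The dispersion was 0.02 for every gene, with no added difference between libraries. The comparison with Gata3-negative GABA nuclei (9324 genes) recovered 95.5% of the changed genes. That with Lum GABA nuclei (6936 genes, with 7.88% of calls false) recovered 93.5%. The sex test (8371 genes) recovered 84.5% and the interaction test (9898 genes) 46%. At a log2 change of 1 the recovery was 91%, 87%, 69% and 14% in the same order. Smaller changes, and changes in genes of fewer UMIs, were not tried.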

Additional observations from a re-analysis of the deposited data

Results flagged for a closer look

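In 4 genes the sex difference (female minus male, log2) differed between Gata3 GABA and Gata3-negative GABA nuclei by the interaction test: it was 1.32 for Arpp21, −1.67 for Ebf1, 1.19 for Tmem132d and 8.51 for Vip. The value of Vip depends on the prior count, since all 21 Vip UMIs of members lay in 2 female nuclei.

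In 5 of 95 named genes, 1 library lay far from the other 3 in the log2 ratio of Gata3 GABA to Gata3-negative GABA nuclei. Chance flags about 1 in 20 groups, which is close to this count. The lowest ratios were −0.912 for Gria1 in female 1, 0.169 for Kcna2 and −2.17 for Oprm1 in male 2, and 0.570 for Zfhx4 in male 1. The highest ratio of St18 was 0.398, in male 1.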

How the results depend on the processing

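The 856 calls against Gata3-negative GABA nuclei became 410 with DESeq2 (105 higher, 305 lower), 212 against the Pax/Ebf2-free nuclei and 631 to 842 with 1 library left out. The 1623 calls against Lum GABA nuclei became 873 with DESeq2 and 1295 to 1461 with 1 library left out. Without the library block (no replicate block) the first count was 536 and the second 1318. The 6 calls of the sex test became 35 with no filter on low counts, 7 to 61 with 1 library left out and 55 with the replicate number as a block. Same-numbered libraries of the 2 sexes deviated together with r = 0.135 over 8720 genes, which with 2 pairs does not show pairing. The 4 interaction calls became 0 with DESeq2, 21 with no filter on low counts, 11 at 5000 UMIs, 1 each without doublet calls, at 2 Gata3 UMIs and with depth-matched comparison nuclei, and 6 to 30 with 1 library left out. The sex difference in the share among gated GABA nuclei, −0.205 percentage points, ran from −2.31 to 1.90 with 1 library left out, was 0.992 without male 2 and 3.88 at 2 Gata3 UMIs. That among all nuclei of 2000 UMIs was −0.0300 after thinning and 0.0390 to 0.463 with 1 library left out.

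Of 82 named genes called against Gata3-negative GABA nuclei, 39 kept direction and call under every alternative that gave a value. Of these, 26 had a value in the Pax/Ebf2-free comparison and 13 had none. The 13 include Ebf2, Pax3 and Pax7, which that class lacks by its choice. Under every alternative but the Pax/Ebf2-free comparison, 62 kept direction and call. In that comparison 30 of 67 with a value were still called, and direction changed for Npas1 (−0.0459), Tac1 (0.159), Penk (1.22), Tacr3 (0.323), Kcnc2 (−0.0421), Grik1 (0.209), Gria3 (0.238) and Ebf1 (0.0257). Penk also changed with depth-matched nuclei (0.107). The cause was not tested. Members rest on 1 to 7 Gata3 UMIs, and 4 pools limit the sex tests.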
